A study of Rattus norvegicus with 6 samples.

Results

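The proteasome is the protease complex that degrades proteins tagged with ubiquitin. Its 20S core particle is a barrel of alpha rings, which gate the entry, and beta rings, which hold the cutting sites, and the 19S cap particle binds the barrel's ends, where its ATPases unfold substrates and its non-ATPase subunits recognise and strip ubiquitin. The genes of both particles are widely transcribed and tend to be regulated together. Glucocorticoids are known to raise several of them in wasting skeletal muscle, and the comparison here asks whether their transcripts moved in neural precursors given the same class of hormone.

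The proteasome genes were taken by name, as every probe set (a group of probes for 1 transcript) whose single annotated symbol starts with Psma, Psmb, Psmc, Psmd, Psme, Psmf or Psmg and a number. The immunoproteasome subunits Psmb8, Psmb9 and Psmb10 were left out. This gave 57 probe sets for 43 of the 14217 genes with a single symbol on the array. Of the 43, 13 encode 20S core subunits (7 alpha and 6 beta), 17 encode 19S cap subunits (6 ATPases and 11 non-ATPases) and 13 belong to neither particle. The last are 7 assembly chaperones, 4 activators or inhibitors and 2 genes, Psmc3ip and Psme3ip1, whose products are not proteasome subunits. A further 6 probe sets list a proteasome symbol beside another gene's and are not counted. Psmb6 and Psme3 are not among the 43 genes and are not analysed here. In the gene table, 17 of the 43 have a pseudogene or paralog named after them, Psma3 and Psmd14 among them, and whether its transcripts add to these signals was not tested.

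The samples were neuronal progenitor cells, which divide and give rise to neurons and glia, from the cerebral cortex of rat embryos at E15.5. They grew on fibronectin in both groups, with bFGF at 20 ng/ml, a growth factor that keeps such cells cycling. Treatment was 48 h with 1 µM corticosterone, the glucocorticoid that rats mainly secrete, or with the solvent alone (DMSO, called vehicle). Each group had 3 samples, 1 Affymetrix array each, and the corticosterone and vehicle samples formed 3 couples. The labels give no strain and nothing on pooling, and no source states separate cultures or litters for the couples, so p-values measure only the spread between these samples.

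All 8 neural progenitor markers measured, Nes, Sox2 and Fabp7 among them, were above the filter on dim signals, and 0 of the 4 endothelial markers were. Of 25 cell type markers tested 5 rose and 2 fell, against 19.5% of all genes passing in either direction. By list, 1 of 8 progenitor markers rose (Nes), 2 of 3 astrocyte markers rose (S100b and Slc1a3), 2 of 4 markers of meninges, pericytes and fibroblasts rose (Col1a2 and Acta2), 1 of 5 neuronal markers fell (Tubb3), 1 of 3 oligodendrocyte lineage markers fell (Pdgfra) and 0 of 2 microglial markers passed. The astrocyte signals summed to 18323 to 20242 on the corticosterone arrays and 11060 to 14953 on the vehicle arrays, and the oligodendrocyte lineage signals to 1091 to 2520 with corticosterone and 1637 to 4608 with vehicle. Neuronal signals summed to 7086 to 10335 with corticosterone and 9289 to 10352 with vehicle. Most of the astrocyte sum was Slc1a3, with 17384 to 19279 with corticosterone and 10848 to 14637 with vehicle. Most of the neuronal sum was Map2, with 6307 to 9514 and 8287 to 9361. These sums mainly follow those genes and are not amounts of a cell type. Signals of meninges, pericytes and fibroblasts summed to 518 to 2721 with corticosterone and 351 to 1604 with vehicle, and were highest in couple 2 in both groups. In cultured samples such as these, fewer cells of a type and less RNA per cell cannot be told apart, and the part of these markers in the proteasome values was not tested. The trimmed mean signal was 500.2 on each array, whereas the median signal was 124 to 134 on the corticosterone arrays and 108 to 122 on the vehicle arrays.

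Few proteasome genes passed the test. With limma (treatment and couple as terms, Benjamini-Hochberg adjusted p under 0.05 over 18625 probe sets), 0 of the 43 genes rose, 2 fell and 41 did not pass. The 2 that fell were the alpha subunit gene Psma3 and the cap deubiquitinase gene Psmd14. Over all 9910 genes tested 19.5% passed in either direction and 7.77% passed as lower, so the share of proteasome genes that passed as lower was not above that among all genes. With each array centred on its median, 14 of the 43 passed, all as lower, while 18.3% of all genes passed as lower. By probe set, 2 of the 52 proteasome probe sets above the filter on dim signals passed, against 15.9% of all probe sets. At an unadjusted p under 0.05 in limma, 8 of the 43 genes were lower and 1 was higher. Of all 9910 genes, 1641 were lower and 1862 higher at that threshold, so the lower count was near that of all genes.

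The fitted differences were small. The 95% confidence intervals of the 43 genes all lay between −0.45 and 0.34 on the log2 scale, or changes of −26.6% to 26.5%. These are separate intervals, for 1 probe set per gene and in the authors' scaling. Over all 52 tested probe sets they reached down to −0.50, and median centring moves each value further down. The median absolute log2 fold change was 0.08 for the proteasome genes and 0.15 for all genes tested. Their median SE was 0.066 and 0.098, so the sets also differ in precision, and its part in this contrast was not tested. Fitted values ran from −0.24, for the ATPase gene Psmc6, to 0.19, for the activator gene Psme1. The plot of fold changes by role shows the 2 genes that passed among neighbours of similar size.

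**Figure D1:**
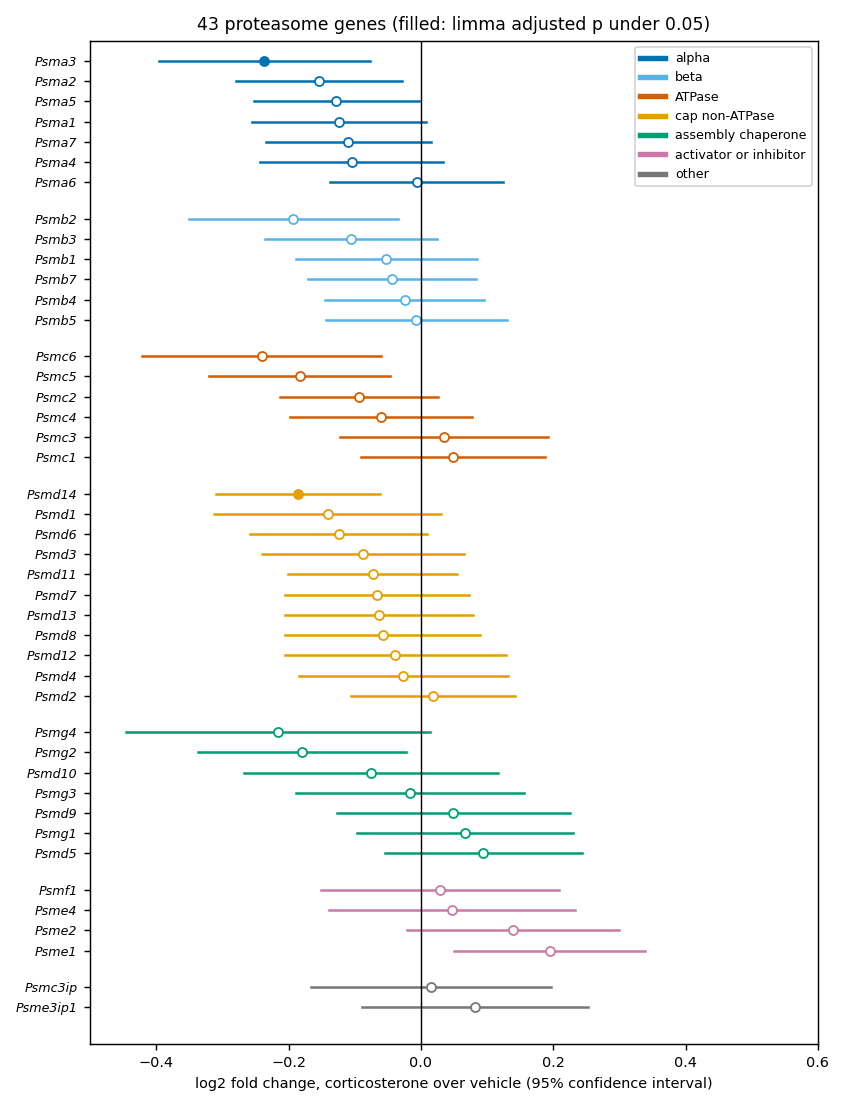
Fitted log2 fold change of corticosterone over vehicle (x axis) for each of the 43 proteasome genes (rows, grouped and coloured by role), with 95% confidence intervals from 3 couples. Filled points, Psma3 and Psmd14, passed in limma, all 13 core genes lie below zero (10 of 13 after quantile normalization), and all 4 activator or inhibitor genes lie above it (with a median of −0.01 after median centring).

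Most of the small differences were negative in the subunits proper. Of the 43 genes 31 had a fitted value below zero, against 50.3% of all genes tested. With the dimmest 60% of probe sets left out, these values were 31 and 55.1%. Below zero were 13 of 13 core genes and 14 of 17 cap genes, or 10 and 13 of them after quantile normalization. The median log2 fold change was −0.11 for the core genes, −0.07 for the cap genes and −0.002 for all genes tested. As percentages of the signal these medians are −7.03%, −4.48% and −0.143%. Counted within couples, 21 of 43 (48.8%) were lower with corticosterone in all 3 couples, against 27.2% of all genes. This held for 10 of the 13 core genes and 10 of the 17 cap genes.

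These counts depend on how the arrays are brought to one scale. Centring each array on its median moves every log2 fold change down by the same amount, and moved the median of all genes by −0.11. By this shift 41 of the 43 genes came to lie below zero, beside 66.8% of all genes. Quantile normalization left 27 of the 43 below zero, beside 52.9% of all genes. Relative to the median of all genes, the core genes stood at −0.10 and the cap genes at −0.06, both as reported and with median centring, and at −0.06 and −0.02 after quantile normalization. With the dimmest 60% of probe sets left out, the core genes stood at −0.08 and the cap genes at −0.04. The part of signal strength in these values was not tested. Over all probe sets, the calls split into 1751 higher and 1202 lower as reported, and into 1246 higher and 2846 lower with median centring.

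**Figure D2:**
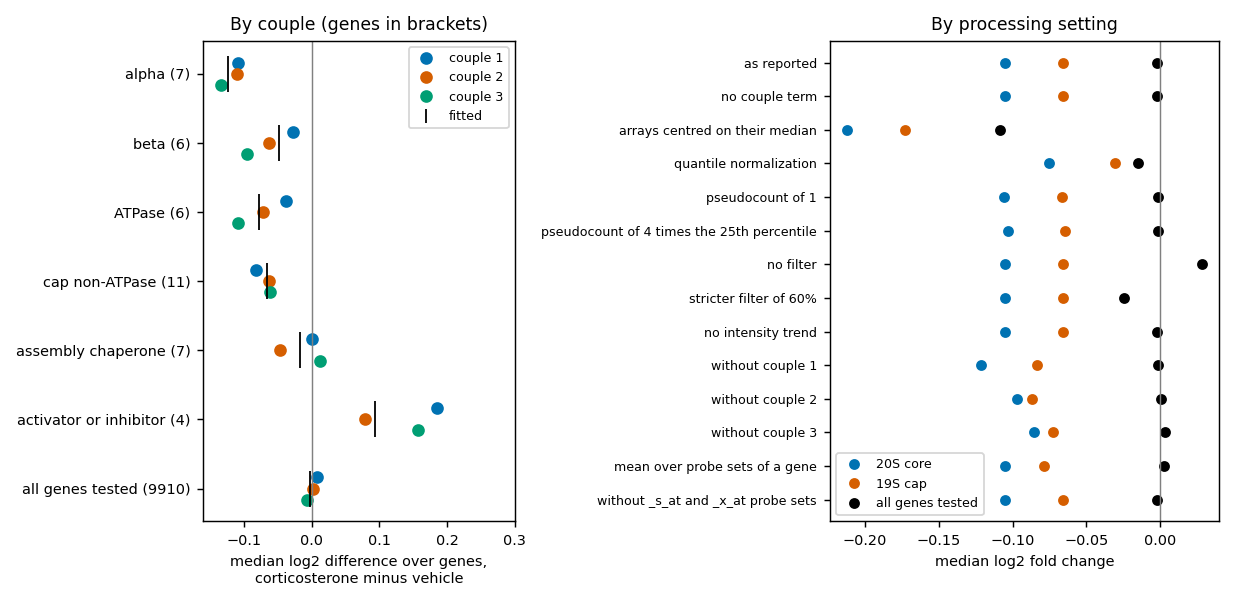
Left, median log2 difference (corticosterone minus vehicle, x axis) over the genes of each role and over all 9910 genes tested, in each couple (points) and in the fit (vertical bars); right, median log2 fold change of core genes, cap genes and all genes tested under each processing setting (rows). The medians of the alpha, beta, ATPase and non-ATPase genes are below zero in each couple, and with median centring the all-gene median moves to −0.11 and the core and cap medians move with it.

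The 2 particles were compared with each other as the medians of their genes, with no test. The core median minus the cap median was −0.04 in the fit. In couples 1, 2 and 3 this difference was 0.02, −0.04 and −0.04, so its sign was not the same in each couple, and its SD over the couples was 0.04. In the core the medians of the 3 couples were −0.06, −0.11 and −0.13, and in the cap they were −0.08, −0.06 and −0.09. The fitted difference was −0.01 without couple 2, −0.01 without couple 3 and −0.03 with the mean over a gene's probe sets.

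Within the core, log2 fold changes of the 7 alpha genes ran from −0.24 to −0.01, with a median of −0.12. Psma3, an alpha ring subunit, had signals of 1637, 1347 and 1184 on the corticosterone arrays of couples 1, 2 and 3, against 1835, 1634 and 1438 on their vehicle arrays. Each corticosterone array was below its vehicle partner, although the groups overlapped. Psma3 averaged 1390 ± 230 with corticosterone and 1636 ± 198 with vehicle (SD, n = 3 each). It fell by 0.24 on the log2 scale (SE 0.07, limma adjusted p = 0.048), a change of −15.1%. The call was not kept without the couple term (limma adjusted p = 0.46) or with any 1 couple left out (limma adjusted p = 0.0995 to 0.23). Over 13 alternative settings Psma3 passed in 6, with limma adjusted p from 0.012 to 0.46. Among the 6 is leaving out _s_at and _x_at probe sets, which could not change its value.

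Psma6, another alpha subunit, had the smallest difference of its ring, with 12080.5, 11365 and 10518 on the corticosterone arrays, against 11656, 10876 and 11543 on the vehicle arrays. The couples differed in sign, and the log2 fold change was −0.01 (95% interval −0.14 to 0.12, limma adjusted p = 0.96).

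The 6 beta genes had a median of −0.05. Psmb2, a beta subunit with no cutting site, had the largest difference among them. Its signals were 6779, 6297 and 6316 with corticosterone, against 8828, 6321 and 7222 with vehicle. The difference came mainly from couple 1, where the log2 difference was −0.38, against −0.01 in couple 2 and −0.19 in couple 3. Its log2 fold change of −0.19 (SE 0.07) did not pass in limma (adjusted p = 0.096), and it was −0.10 without couple 1. Psmb5, which carries the chymotrypsin-like cutting site and is the main target of proteasome inhibitor drugs, had 8776, 7063 and 7600 with corticosterone, against 8230, 7777 and 7465 with vehicle. The couples differed in sign and the log2 fold change was −0.01 (95% interval −0.14 to 0.13, limma adjusted p = 0.96).

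**Figure D3:**
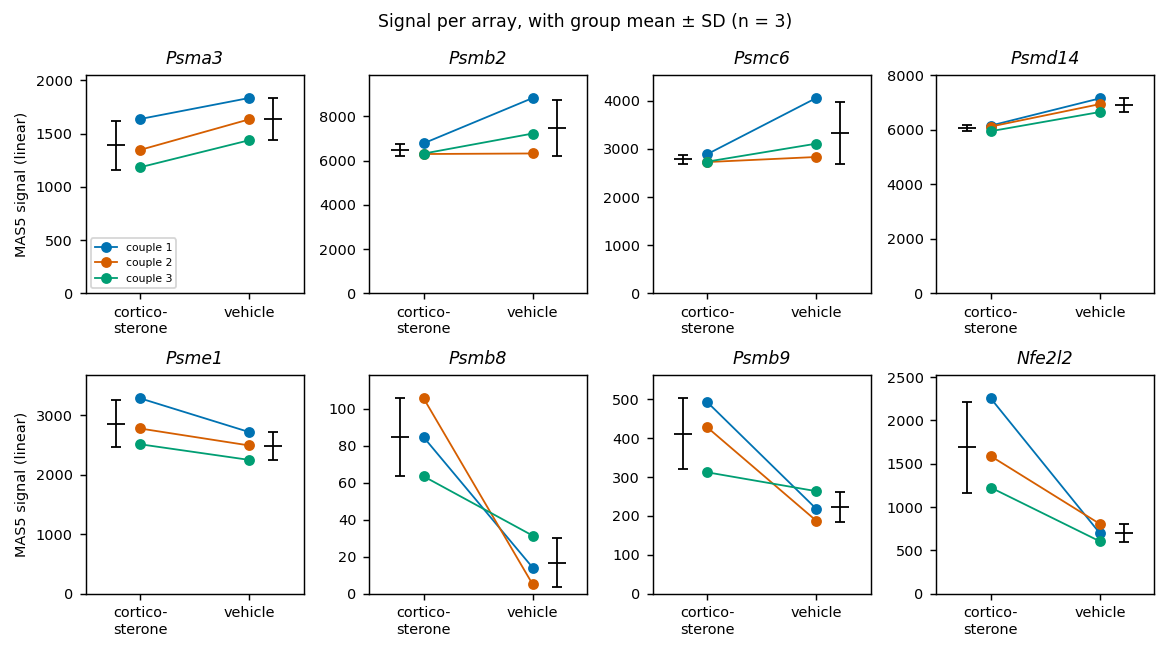
MAS5 signal (y axis, linear, from 0) on each array for 5 proteasome genes, the immunoproteasome genes Psmb8 and Psmb9 and the regulator gene Nfe2l2, with corticosterone left of vehicle, lines joining the arrays of a couple and bars for the group mean ± SD (n = 3). Psmd14, Psmb8, Psmb9 and Nfe2l2 show no overlap between the groups, while Psma3, Psmb2, Psmc6 and Psme1 overlap.

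In the cap, the 6 ATPase genes had a median of −0.08 and 0 passed. Psmc6, a subunit of the ATPase ring, had 2890, 2727 and 2736 with corticosterone, against 4058, 2832 and 3109 with vehicle. The corticosterone values were close together, and the vehicle array of couple 1 stood well above the other arrays. Its log2 fold change was −0.24 (SE 0.08; adjusted p = 0.072 in limma), and −0.12 without couple 1. The 3 probe sets of Psmc6 gave −0.27 to −0.18 and 0 of them passed. Psmc3, another ATPase, had the value nearest zero, with 4951, 4676 and 4036 with corticosterone, against 4265, 4642 and 4385 with vehicle. Its log2 fold change was 0.04 (95% interval −0.12 to 0.19, limma adjusted p = 0.79), and it turned to −0.07 with median centring and −0.05 without couple 1.

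The 11 non-ATPase genes of the cap had a median of −0.07. Psmd14, which removes ubiquitin chains from substrates before they enter the core, had 6157, 6121 and 5952 with corticosterone, against 7157, 6945 and 6656 with vehicle. All 3 corticosterone arrays lay below all 3 vehicle arrays. Its means were 6077 ± 110 with corticosterone and 6919 ± 252 with vehicle (SD, n = 3 each). Psmd14 fell by 0.19 on the log2 scale (SE 0.06, limma adjusted p = 0.046), a change of −12.1%, and the couples gave −0.22, −0.18 and −0.16. Its other 2 probe sets gave −0.14 and −0.24 and did not pass (limma adjusted p = 0.19 and 0.14). The call was not kept without the couple term (limma adjusted p = 0.26) or with any 1 couple left out (limma adjusted p = 0.10 to 0.20). Psmd14 passed in 5 of 13 alternative settings (limma adjusted p = 0.0086 to 0.26). Among the 5 is leaving out _s_at and _x_at probe sets, which could not change its value.

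Psmd2, the large scaffold on which shuttle proteins dock, had 5752, 7127 and 6606 with corticosterone, against 5729, 6923 and 6578 with vehicle. The signals differed between couples and hardly within them, and the log2 fold change was 0.02 (95% interval −0.11 to 0.14, limma adjusted p = 0.87), or −0.09 with median centring. The receptor gene Adrm1 and the small cap gene Sem1, cap subunits with other symbols, also did not pass (limma adjusted p = 0.82 and 0.57). They and the next value were picked after the values were seen. Adrm1 had 464 on the corticosterone array and 352 on the vehicle array of couple 1, against 1158 to 1339 on the other 4 arrays.

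Outside the particles, the 7 assembly chaperone genes had a median of −0.02 and 0 passed. Psmg4, which helps to assemble the alpha ring, had 2903, 2967 and 2310 with corticosterone, against 2859, 3097 and 3536 with vehicle. Only couple 3 differed clearly, by −0.61. The log2 fold change was −0.22 (SE 0.10, limma adjusted p = 0.19), and −0.02 without couple 3. Psmg3, its partner, had 1222, 969 and 1103 with corticosterone, against 1220, 1041 and 1065 with vehicle, a log2 fold change of −0.02 (limma adjusted p = 0.92). The 2 probe sets of Psmd9, a chaperone of the ATPase ring, gave 0.05 and −0.14 and neither passed. The brighter of them had 1025, 1018 and 1070 with corticosterone, against 1046, 989 and 972 with vehicle.

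Separation of the groups was rare. Of the 43 genes 0 had all corticosterone arrays above all vehicle arrays, beside 1464 of all 9910 genes. In 2 of the 43 all corticosterone arrays lay below all vehicle arrays, against 11.4% of all genes. These were Psmd14 and the chaperone gene Psmg2, which is named for this reason after its values were seen. Psmg2 had 1670, 1544 and 1674 with corticosterone, against 1950, 1816 and 1783 with vehicle, and its log2 fold change of −0.18 did not pass in limma (adjusted p = 0.12).

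The activators and the inhibitor stood on the other side of zero. All 4 had a positive fitted value, with a median of 0.09, although 0 passed and the median was −0.01 with median centring and 0.11 after quantile normalization. Psme1, a subunit of the interferon-inducible activator ring that can replace the cap, had 3281, 2774 and 2509 with corticosterone, against 2714, 2489 and 2247 with vehicle. It was higher in each couple, with overlapping groups. The log2 fold change was 0.19 (SE 0.07, limma adjusted p = 0.068), and with quantile normalization it passed (limma adjusted p = 0.035), as the only proteasome gene in that setting. The gene of its ring partner, Psme2, had a log2 fold change of 0.14 (limma adjusted p = 0.23). Psmf1, an inhibitor of the core in vitro, had 1129, 1089 and 1180 with corticosterone, against 1196, 1088 and 1050 with vehicle. Its log2 fold change was 0.03 (95% interval −0.15 to 0.21, limma adjusted p = 0.86) and turned to −0.08 with median centring and −0.04 without couple 3.

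The couples also differed in these transcripts. In 38 of the 43 genes (88.4%) the range of the couple means was larger than the absolute fold change, against 65.3% of all genes tested. That range was not itself wider in these genes, with a median log2 value of 0.21 against 0.25 for all genes. The median absolute log2 fold change was 0.08 against 0.15. A range over 3 means and a single difference are unlike measures. Couple 1 was the highest couple for 35 of the 43 (81.4%), among them 7 of 7 alpha genes, against 35.5% of all genes. Some technical measures also set couple 1 apart. The geometric mean signal of 18 probe sets for spiked-in control transcripts was 1257 on its corticosterone array and 1401 on its vehicle array, against 1851 to 2163 on the other 4 arrays. The ratio of the 3′ to the 5′ probe set of Actb, a measure of RNA integrity, was 1.76 and 1.55 in couple 1, against 2.0 to 2.12 on the other arrays. Their part in the couple difference was not tested.

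**Figure D4:**
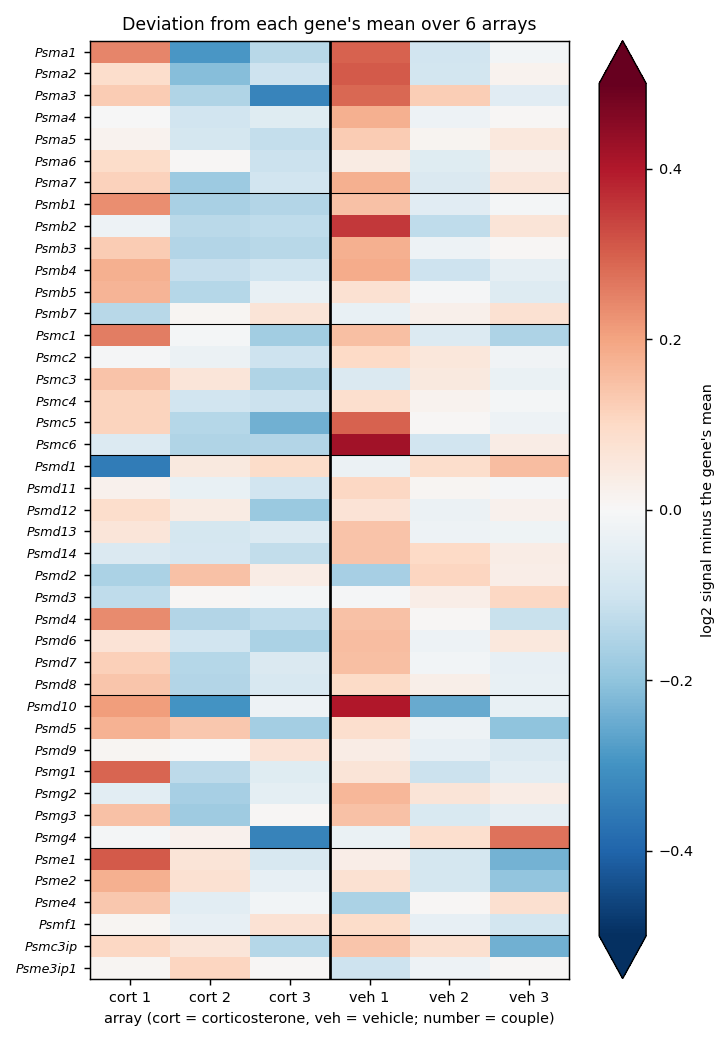
Log2 signal minus the gene's mean over the 6 arrays (colour, log2 units) for each of the 43 proteasome genes (rows, grouped by role, with lines between roles) on each array (columns, corticosterone left of vehicle). The columns of couple 1, above all vehicle 1, are red for most genes, in 35 of which couple 1 is the highest couple.

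The remaining proteasome genes ranged between these values. The 5 probe sets below the filter belong to Psmb5, Psmc4, Psmd11 and Psme1, had signals of 1.72 to 53.6 over all arrays and were not tested. Each of these genes has a brighter probe set that was, so all 43 genes were tested. Of the 6 genes with several tested probe sets, Psmd9 was the one whose probe sets differed in sign and Psmd14 the one whose probe sets differed in call.

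The immunoproteasome subunits, beta subunits that replace the constitutive ones after interferon, are given beside these genes. Psmb9 had 493, 428 and 312 with corticosterone, against 218, 188 and 264 with vehicle. The groups did not overlap, and Psmb9 rose by 0.79 on the log2 scale (SE 0.17, limma adjusted p = 0.0079). It passed in 10 of 13 alternative settings, and not without couple 2 (limma adjusted p = 0.11), without the couple term (limma adjusted p = 0.076) or without the intensity trend (limma adjusted p = 0.074). Psmb8 was below the filter, with 84.5, 106 and 63.4 with corticosterone, against 14.0, 4.97 and 31.3 with vehicle. Its groups did not overlap either. The vehicle arrays of couples 1 and 2 were under the background signal of 22.8, so that no fold is given. Psmb10 had 452, 455 and 470 with corticosterone, against 594, 457 and 598 with vehicle, and its log2 fold change of −0.24 did not pass (limma adjusted p = 0.17). Of the antigen processing genes Tap1, Tap2 and B2m, 0 of 3 passed.

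The wider ubiquitin pathway was described by a list of 70 genes, of which 62 had a single-symbol probe set and 60 were tested. With limma 2 rose, 6 fell and 52 did not pass, against 19.5% of all genes passing, and the median log2 fold change was −0.06. The 4 ubiquitin genes had no single-symbol probe set. The calls were spread over the roles, with 4 of 21 conjugating enzymes, 1 of 14 proteasome-bound factors, 1 of 6 segregase genes, 1 of 11 transcription regulators and 1 of 6 ligases.

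Nfe2l2, a stress-activated transcription factor that can raise proteasome genes after oxidants, had 2255, 1588 and 1225 with corticosterone, against 698, 805 and 604 with vehicle. The lowest corticosterone array was above the highest vehicle array. Nfe2l2 averaged 1690 ± 523 with corticosterone and 702 ± 101 with vehicle (SD, n = 3 each), and rose by 1.20 on the log2 scale (SE 0.12, limma adjusted p = 1.0e-04). It passed in 13 of 13 alternative settings, with log2 fold changes from 0.97 to 1.32. Nfe2l1, the factor that restores proteasome gene transcription when the proteasome is inhibited, had 362, 385 and 376 with corticosterone, against 349, 364 and 363 with vehicle. Its log2 fold change was 0.06 (SE 0.11, limma adjusted p = 0.76) and was −0.05 with median centring.

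Among the conjugating enzymes, Ube2a, which helps to ubiquitinate histones, had 2474, 2608 and 2809 with corticosterone, against 1780, 1821 and 1873 with vehicle. The groups did not overlap, and Ube2a rose by 0.52 on the log2 scale (SE 0.07, limma adjusted p = 4.5e-04), a call kept in 13 of 13 alternative settings. Ube2v2, a partner of Ube2n without catalytic activity, fell by 0.31 on the log2 scale (limma adjusted p = 0.02). Ube2j2, anchored in the endoplasmic reticulum, fell by 0.22, and Ube2s, which extends chains for the anaphase-promoting complex, fell by 0.20 (limma adjusted p = 0.049 and 0.037).

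Elsewhere in the pathway Nsfl1c, a cofactor of the segregase Vcp, fell by 0.25 on the log2 scale (limma adjusted p = 0.03). Stub1, a ligase that works with chaperones, fell by 0.24 and the proteasome-bound thioredoxin Txnl1 fell by 0.19 (limma adjusted p = 0.038 and 0.046). Calls of these 6 lower genes were kept in 5 to 8 of 13 alternative settings, and 0 of them held without the couple term. The ligases Trim63 and Fbxo32, known for their rise in muscle under glucocorticoids, were below the filter. Trim63 had 4.69, 1.68 and 1.42 with corticosterone, against 1.07, 1.32 and 5.46 with vehicle, all under the background. Fbxo32 had 39.1, 36.0 and 2.29 with corticosterone, against 12.6, 1.62 and 12.7 with vehicle, so that 2 of 6 arrays were above the background.

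**Figure D5:**
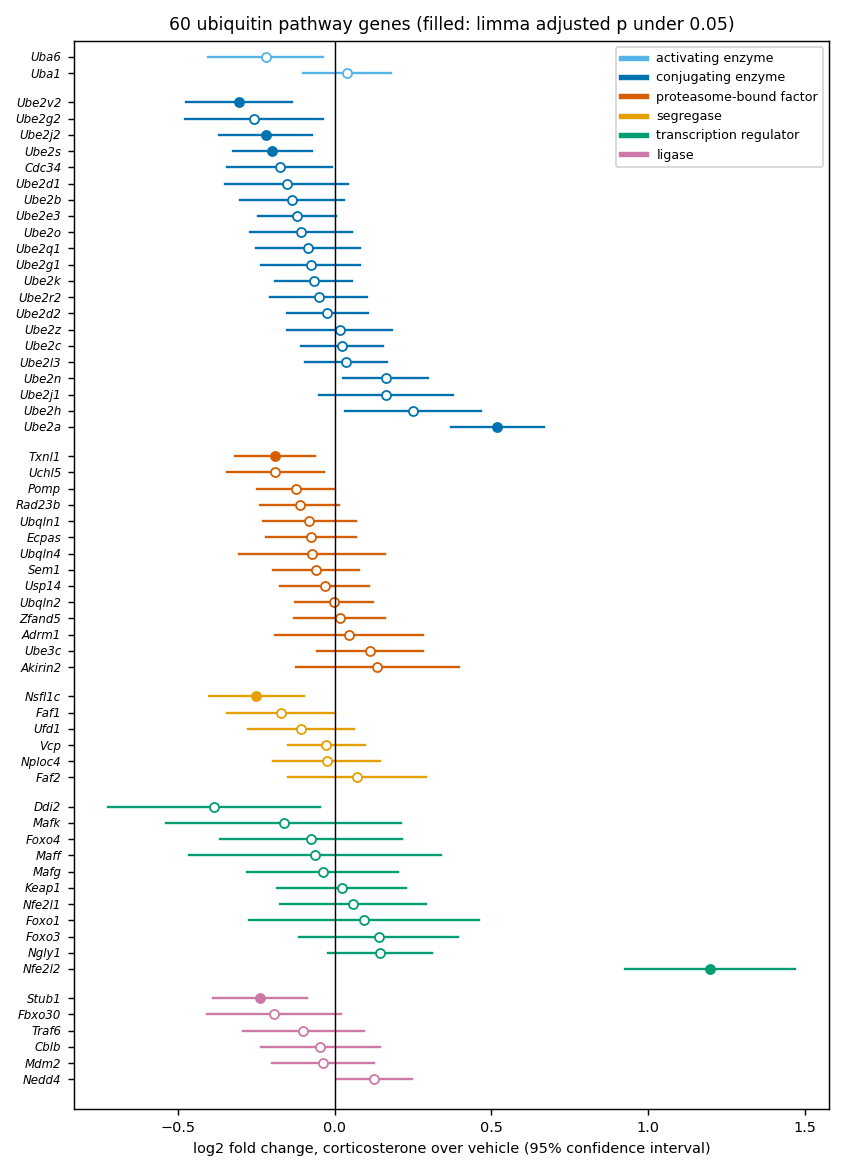
Fitted log2 fold change of corticosterone over vehicle (x axis) for the 60 tested genes of the ubiquitin pathway list (rows, grouped and coloured by role), with 95% confidence intervals from 3 couples and filled points for genes that passed in limma. Nfe2l2 at 1.20 and Ube2a at 0.52 stand to the right, and the 6 genes that fell lie between −0.31 and −0.19.

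Promoters of the proteasome genes were searched for the letters that Nfe2l2 and Nfe2l1, CCAAT-binding factors and the glucocorticoid receptor are known to recognise. RefSeq promoters of 300 bases (250 before to 50 after the start, build GRCr8) were matched for 39 of the 43 genes. Psma7, Psmd6, Psmd12 and Psmd14 had none, so that Psmd14, which passed in limma, was not searched. Of these, 7 (17.95%) held TGACNNNGC, the core of the antioxidant response element, on either strand, against 12.06% of 33469 promoters. The 7 genes were Psma3, Psmb2, Psmb5, Psmd1, Psmd3, Psmd9 and Psme4, and their log2 fold changes ran from −0.24 to 0.05, with a median of −0.09, against −0.06 for the 32 without the match. CCAAT was in 20 of 39 (51.28%), against 37.49% of all promoters. The glucocorticoid response element, searched as GNACA and TGTNC 3 bases apart on either strand, was in 1 of 39 promoters, against 0.44% of all. A match is a description of letters and shows neither binding nor a cause.

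Upstream stretches of 250 bases (5′ to 3′ on the gene's strand, ending at the base before the start) are shown for Psma3, the core gene that passed, for Psmb2 and Psmb5, beta genes with the same match and log2 fold changes of −0.19 and −0.01, and for Psme1, the activator gene with the largest value and no match. Capitals mark TGACNNNGC or CCAAT matches on either strand, which overlap in Psmb2. The stretches lie at chr6:95219499-95219748 (plus strand) for Psma3, chr5:144254808-144255057 (plus strand) for Psmb2, chr15:32047380-32047629 (minus strand) for Psmb5 and chr15:33038721-33038970 (plus strand) for Psme1.
Psma3: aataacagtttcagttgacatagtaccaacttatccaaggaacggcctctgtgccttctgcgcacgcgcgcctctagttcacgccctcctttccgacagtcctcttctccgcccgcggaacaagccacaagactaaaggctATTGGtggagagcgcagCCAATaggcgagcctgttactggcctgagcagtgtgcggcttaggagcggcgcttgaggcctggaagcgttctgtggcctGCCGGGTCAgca
Psmb2: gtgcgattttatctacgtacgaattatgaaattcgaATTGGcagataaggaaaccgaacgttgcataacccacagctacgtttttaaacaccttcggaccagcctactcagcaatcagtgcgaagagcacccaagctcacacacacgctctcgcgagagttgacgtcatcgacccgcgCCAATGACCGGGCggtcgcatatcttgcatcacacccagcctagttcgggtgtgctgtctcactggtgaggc
Psmb5: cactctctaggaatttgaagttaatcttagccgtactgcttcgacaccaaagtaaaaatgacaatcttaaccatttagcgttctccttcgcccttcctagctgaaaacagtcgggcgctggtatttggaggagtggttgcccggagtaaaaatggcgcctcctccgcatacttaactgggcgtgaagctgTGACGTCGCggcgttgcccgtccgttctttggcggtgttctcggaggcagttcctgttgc
Psme1: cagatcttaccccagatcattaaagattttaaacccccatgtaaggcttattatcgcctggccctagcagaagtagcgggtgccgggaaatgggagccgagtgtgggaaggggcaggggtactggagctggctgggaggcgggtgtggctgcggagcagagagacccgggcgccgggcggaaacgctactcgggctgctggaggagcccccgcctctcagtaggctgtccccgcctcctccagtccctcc

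The TGACNNNGC match begins 12 bases before the start in Psma3, on the opposite strand, and 68 and 60 bases before it in Psmb2 and Psmb5, on the gene's own strand. These 3 genes with a match include the one core gene that passed and the beta gene nearest to zero.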

How the data were processed

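Each of the 6 arrays has 1 linear intensity for every probe set, which the authors computed with MAS5 and deposited, per the submitters' processing notes. Settings and detection calls of MAS5 were not stated in any source used here. The 2%-trimmed mean is the same on each array, so the authors scaled the arrays to one mean, which leaves their medians free to differ. Per the labels' protocols, cRNA was made from 3 µg of total RNA with an oligo(dT) primer, which weights signals to the 3′ end. Probe signals of different probe sets are not comparable as levels.

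Of 31099 probe sets, 57 controls were left out. Symbols come from the platform annotation, with 20826 probe sets having 1 symbol, 436 several and 9780 none. Entrez identifiers of 20758 were found in the RefSeq gene table (GRCr8), and 0 symbols needed an update. Signals were transformed to log2(signal + 28.6), with the 25th percentile of the table as pseudocount, so that fold changes of dim genes are understated. The dimmest 40% by mean log2 signal over all 6 arrays (a signal under 63.6) were not tested, and 18625 were. A background signal of 22.8 was read as the 95th percentile over 27 probe sets for bacterial transcripts. These were taken as not spiked in, which no source states. The fit used limma 3.58.1 in R 4.3.3 (lmFit, and eBayes with its trend option) on couple and treatment, two-sided, with Benjamini-Hochberg adjustment over all probe sets tested and a threshold of 0.05. It was tested on simulated data in 2 ways. With noise of the size that limma itself estimates, which favours the fit, a part of the known changes was called. With each gene's spread shuffled between genes, estimates stayed close to the truth and none was called. Shuffling breaks the link between spread and signal that the trend option uses. This case is therefore unlike the data, and neither case gives the share of real changes that the fit finds. A gene that did not pass may still have changed. The intensity trend draws each gene's spread towards that of genes of similar signal. A gene is represented by its tested probe set with the highest mean log2 signal, which gave 9910 genes.

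The couple is a term because the series' design text speaks of couples and the titles number both groups 1 to 3. After the group mean was taken off, arrays with the same number correlated by 0.57, 0.52 and 0.35, and arrays with different numbers by −0.48 to 0.003 (across probe sets, which are not independent).

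Genes were named by rule. In each role group the rule takes the members that passed and those with the largest and smallest absolute fold change, together with members whose probe sets differ in sign or call and the immunoproteasome subunits. Of the ubiquitin pathway list it takes the genes that passed and 4 regulators or ligases (Nfe2l1, Nfe2l2, Trim63 and Fbxo32). Members, gene lists and tests were chosen with earlier results of these data known. Alternatives were another scaling (median centring, quantile), other pseudocounts (1, and 4 times the 25th percentile), no filter or one of 60%, no intensity trend, no couple term, each couple left out, the mean over a gene's probe sets, and no probe sets marked _s_at or _x_at.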

Additional observations from a re-analysis of the deposited data

How the results depend on the processing

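With 3 couples the precision limits every value, and dim signals add to this. The couple is the replicate block of the fit, and most calls rest on this pairing: without it 417 probe sets passed in place of 2953, with 0 proteasome probe sets, 0 proteasome genes, 0 core genes, 0 cap genes and 2 ubiquitin pathway genes. With no filter 1862 probe sets passed and with no intensity trend 1262, each with 0 proteasome probe sets, genes, core genes and cap genes and 2 ubiquitin pathway genes. With median centring 4092 of all 18625 probe sets passed, and 1811 of all 9910 genes passed as lower and 828 as higher. Beside these, 19 of 52 proteasome probe sets, 14 of 43 proteasome genes, 7 of 13 core genes and 5 of 17 cap genes passed. Of the 60 ubiquitin pathway genes 16 passed, 2 as higher and 14 as lower. The core and cap medians were −0.21 and −0.17 in that setting. With quantile normalization 2860 probe sets passed, with 1 proteasome probe set, 1 proteasome gene, 0 core, 0 cap and 5 ubiquitin pathway genes. The cap median was then −0.0306. With the mean over a gene's probe sets 1 proteasome gene and 0 cap genes passed. Leaving out 1 couple gave 1192 to 2807 probe sets, 0 proteasome probe sets, genes, core genes and cap genes each time, 2 to 5 ubiquitin pathway genes and a cap median of −0.0866 to −0.0728. Values near zero changed sign. With median centring these were Psmc3 (−0.0714), Psmd2 (−0.0886), Psmf1 (−0.0779), Psmd9 (−0.0576) and Nfe2l1 (−0.0485). With quantile normalization Psma6 (0.0224) and Psmb5 (0.0081) did, and with the mean over probe sets Psmd9 (−0.0443). Leaving out 1 couple gave −0.0412 to 0.0574 for Psma6, −0.0563 to 0.059 for Psmb5, −0.0541 to 0.112 for Psmc3, −0.0494 to 0.0254 for Psmg3 and −0.0391 to 0.0833 for Psmf1. The cause of these shifts was not tested. Both pseudocounts and the stricter filter kept the count of 2 proteasome genes. Leaving out _s_at and _x_at probe sets could not change it, as no proteasome gene was represented by such a probe set.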
